A study of Mus musculus with 8 samples.

Results

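The genes described here are 9 core members of the Sonic hedgehog pathway, out of 27179 genes with a count in the deposited matrix. They were chosen by symbol for their place in the pathway and not by a measured value, though earlier results of these data were known. They are the ligand Shh, the receptor Ptch1, the coreceptors Boc and Gas1, the transducer Smo, the inhibitor Sufu and the transcription factors Gli1, Gli2 and Gli3. RNA came from the embryonic cerebral cortex of 4 wild-type mouse embryos, labelled Taf8 +/+, and 4 Taf8-deleted embryos, labelled Taf8 -/lox, with 1 library per embryo. The product of Taf8 is part of TFIID, a general transcription factor that binds core promoters. Not given in the sources used here are the Cre driver, the cells in which it acts and the embryonic day.

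Sonic hedgehog is a secreted protein that binds Ptch1 on the receiving cell with the help of Boc, Gas1 and Cdon. Unbound Ptch1 keeps the membrane protein Smo inactive, and ligand binding releases Smo, which signals to the Gli proteins in the primary cilium. Without ligand, Sufu holds Gli proteins back and Gli3, with some Gli2, is cut into a repressor. With ligand, Gli2 and Gli3 act as activators, and Gli1 and Ptch1 are transcribed as targets of the pathway itself. In the forebrain, ligand from ventral sources patterns the ventral telencephalon, Gli3 repressor is known for protecting dorsal, cortical fate, and the pathway also supports progenitor division.

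Levels are CPM, the counts of a gene scaled to the effective size of its library, as mean ± SD with n = 4 embryos per group. Changes are log2 fold changes of Taf8-deleted over wild-type with their standard error (SE) from edgeR's quasi-likelihood fit, with p-values adjusted over all genes tested and a threshold of 0.05. Libraries held 26312505 to 65523487 counts, so 3 counts, the limit that a count of 0 allows, stand for 0.0469 to 0.112 CPM, counting error only. Taf8 fell from 34.8 ± 2.75 CPM in wild-type to 0.643 ± 0.149 CPM in Taf8-deleted cortex (log2 -5.75, SE 0.12, adjusted p = 1.45e-09), and all 4 deleted libraries lay below all 4 wild-type libraries. Of 15649 genes tested, 9257 (59.2%) passed the threshold, 29.5% as higher and 29.6% as lower in Taf8-deleted cortex, and for 53.6% the groups did not overlap. The first part of the animal number is shared by no wild-type and deleted embryo, so a litter or batch that it may mark cannot be told apart from Taf8 status. In bulk tissue, fewer cells of a type and less RNA per cell cannot be told apart either.

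All 9 members passed the filter on low counts. Shh, Ptch1, Gas1 and Gli3 were higher in Taf8-deleted cortex, Gli1 was lower, and Boc, Smo, Sufu and Gli2 did not pass the test. The 5 called members are 55.6% of the 9, near the 59.2% called among all genes. In 4 of the 9 the groups did not overlap, against 53.6% of all genes tested. The median log2 fold change of the members was 0.12, against 0.01 over all genes tested, and the median size of change was 0.16, against 0.27. The called members did not share a direction.

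**Figure D1:**
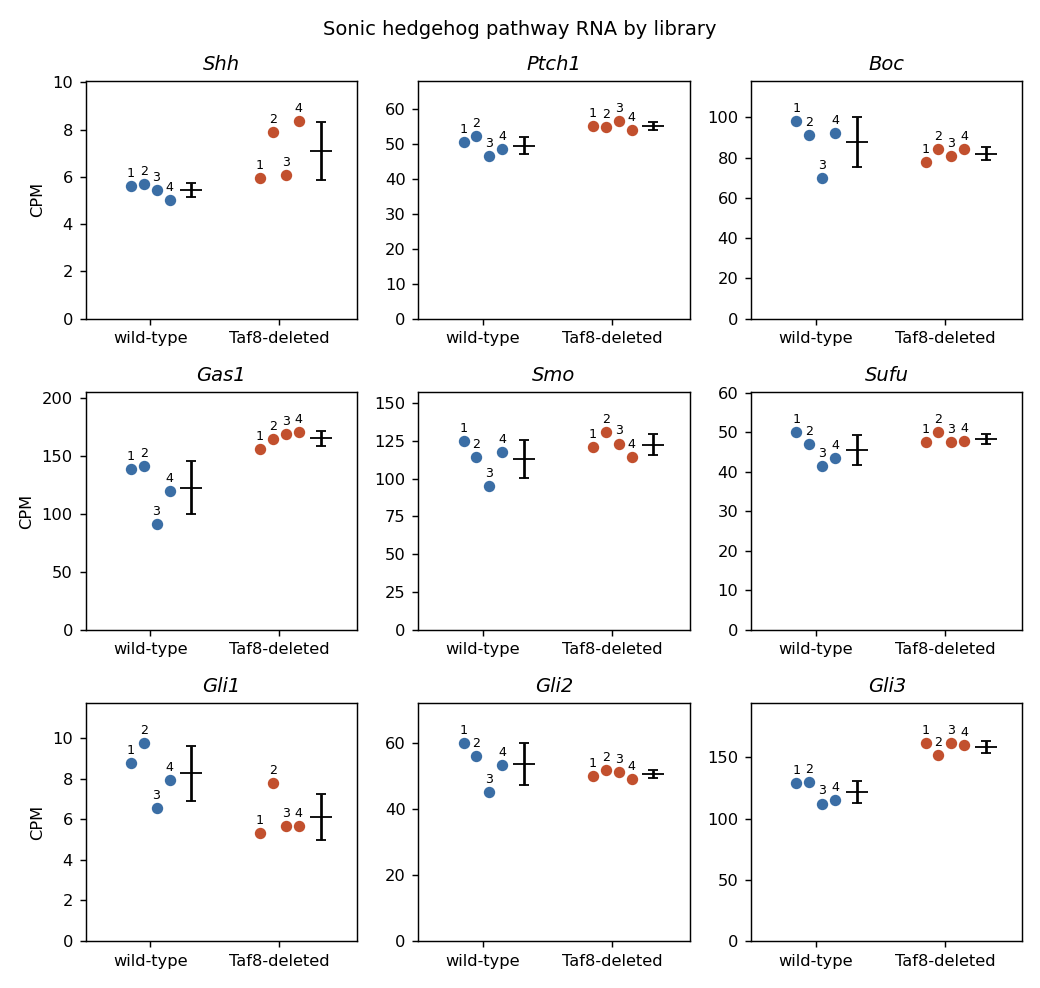
Level of each member in CPM (y axis, from 0) in 4 wild-type and 4 Taf8-deleted libraries. Points are libraries, numbered by replicate, and the cross with bars gives mean ± SD. Shh, Ptch1, Gas1 and Gli3 have groups that do not overlap, and in Gli1 the deleted replicate 2, at 7.79 CPM, lies above the wild-type replicate 3, at 6.57 CPM.

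Because TFIID acts at core promoters, the sequence just before the start of 4 members is shown, with CpG dinucleotides in capitals. These are Ptch1, Gas1 and Gli3, which rose, and Gli2, a close relative of Gli3 that did not pass the test. Each is 120 bases of reference sequence from RefSeq (GRCm38.p6, the sequence of mm10), written 5′ to 3′ on the gene's strand up to the base before the start that the RefSeq promoter table uses. For Gas1 and Gli3 that start is the end of the annotated gene span, and for Ptch1 and Gli2 it lies inside the span, downstream of the outermost start. They lie at chr13:63565736-63565855 on the minus strand for Ptch1, chr13:60177536-60177655 on the minus strand for Gas1, chr1:119053620-119053739 on the minus strand for Gli2 and chr13:15463603-15463722 on the plus strand for Gli3.
Ptch1: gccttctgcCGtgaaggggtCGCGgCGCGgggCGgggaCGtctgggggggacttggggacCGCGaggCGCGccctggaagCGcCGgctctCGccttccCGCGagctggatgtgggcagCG
Gas1: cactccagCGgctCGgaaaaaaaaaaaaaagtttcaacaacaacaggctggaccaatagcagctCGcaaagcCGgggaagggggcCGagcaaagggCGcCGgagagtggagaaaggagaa
Gli2: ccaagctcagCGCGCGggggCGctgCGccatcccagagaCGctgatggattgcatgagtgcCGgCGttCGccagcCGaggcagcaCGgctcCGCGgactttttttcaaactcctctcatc
Gli3: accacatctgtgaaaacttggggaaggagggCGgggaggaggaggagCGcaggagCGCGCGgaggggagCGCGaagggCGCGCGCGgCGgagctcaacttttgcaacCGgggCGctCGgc

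These stretches differed in CpG content, with 17 CpG in Ptch1, 15 in Gli3, 13 in Gli2 and 7 in Gas1. A window from 250 bases before to 50 bases after the start was listed for 6 of the 9 members, Gas1, Gli2, Gli3, Ptch1, Smo and Sufu. Their windows were 56.3% to 76.3% G and C, against a median of 52.7% over all 32851 windows in the table. They held 12 to 47 CpG, against a median of 7 and quartiles of 3 and 20. The letters TATAAA, the core of a TATA box, were in 0 of the 6 windows on either strand, and in 13.6% of all windows. CCAAT, the core letters of the CCAAT box, was in 2 of 6, Gas1 (seen above as ccaat) and Sufu, and in 37.4% of all windows. The Gli consensus letters TGGGTGGTC, searched on both strands, were in 0 of 6 member windows, in 0 of 38 other pathway genes with a window, and in 0.253% of all windows. The searched motifs do not overlap in letters, and a match or its absence describes only these windows. The member that fell, Gli1, and the ligand Shh had no entry in the table.

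Shh (Entrez gene 20423, chromosome 5, 28456840 to 28467101, minus strand), which encodes the ligand, was the member with the lowest level per length in wild-type cortex. It was at 5.61, 5.71, 5.46 and 5.02 CPM in the wild-type libraries and at 5.96, 7.89, 6.10 and 8.38 CPM in the Taf8-deleted libraries. Every deleted library lay above every wild-type library, with replicates 1 and 3 just above and replicates 2 and 4 well above. Shh rose from 5.45 ± 0.304 to 7.08 ± 1.23 CPM (log2 0.38, SE 0.12, 95% interval 0.11 to 0.66, adjusted p = 0.0206 by edgeR), on 163 to 444 counts per library. The call was lost on leaving out some single libraries. Without deleted replicate 4 the log2 fold change was 0.27 (adjusted p = 0.081), without deleted replicate 2 it was 0.31 (adjusted p = 0.0745) and without wild-type replicate 4 it was 0.33 (adjusted p = 0.0665). Shh is transcribed in few cells of the forebrain, and of 8 markers of the ventral midline and hypothalamus 4 passed the filter on low counts. Foxa2, the floor plate regulator, had 1, 1, 0 and 0 counts in the wild-type libraries and 0 counts in all 4 deleted libraries. These are too few to compare the groups. Six3, which is transcribed more widely in the forebrain, made up most of the list at 41.4 ± 4.02 and 35.5 ± 3.16 CPM, and the list as a whole summed to 43.7 to 56.24 CPM in wild-type and 40.72 to 52.71 CPM in deleted libraries. The ventral telencephalon is another place of Shh transcription in the embryo. Of 12 markers of it and of interneurons 8 were lower and 3 higher, against 29.6% lower and 29.5% higher among all genes tested. The marker sums were 1162 to 1348 CPM in wild-type and 981.3 to 1012 CPM in deleted cortex. The part of these cells in the level of Shh was not tested.

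Ptch1 (Entrez gene 19206, chromosome 13, 63508328 to 63573460, minus strand) encodes the receptor that restrains Smo and is itself a pathway target. Wild-type libraries had 50.5, 52.3, 46.6 and 48.7 CPM and deleted libraries 55.1, 54.9, 56.7 and 54.0 CPM. The groups did not overlap, although the gap between the highest wild-type and the lowest deleted library was small. The rise, from 49.5 ± 2.45 to 55.2 ± 1.14 CPM, was the smallest among the called members (log2 0.16, SE 0.04, 95% interval 0.06 to 0.25, adjusted p = 0.0107 by edgeR).

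The coreceptors differed from each other. Gas1 (Entrez gene 14451, chromosome 13, 60174405 to 60177535, minus strand), which encodes a membrane-anchored protein that helps Shh to bind Ptch1, was at 139, 141, 90.9 and 119.96 CPM in wild-type libraries and at 156, 165, 169 and 170.8 CPM in deleted libraries. Wild-type replicate 3 was the lowest of all, and the groups did not overlap. Gas1 rose from 123 ± 23.2 to 165 ± 6.68 CPM (log2 0.43, SE 0.12, 95% interval 0.17 to 0.69, adjusted p = 0.00849 by edgeR). Without wild-type replicate 3 the log2 fold change was 0.31 (adjusted p = 0.00124).

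Boc (Entrez gene 117606, chromosome 16, 44485045 to 44558870, minus strand), an immunoglobulin-family coreceptor, ranged from 69.9 to 98.4 CPM in wild-type and from 77.8 to 84.5 CPM in deleted cortex. Deleted values lay inside the wild-type range, and the test did not pass (log2 -0.10, SE 0.09, 95% interval -0.30 to 0.10, adjusted p = 0.364 by edgeR). Without wild-type replicate 3, the lowest library, Boc passed as lower in Taf8-deleted cortex (log2 -0.20, adjusted p = 0.00259).

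Smo (Entrez gene 319757, chromosome 6, 29735497 to 29761366, plus strand), the transducer that Ptch1 holds inactive, ranged from 94.8 to 125 CPM in wild-type and from 114 to 131 CPM in deleted libraries. Its groups overlapped and the difference did not pass (log2 0.12, SE 0.08, 95% interval -0.06 to 0.29, adjusted p = 0.223 by edgeR). Sufu (Entrez gene 24069, chromosome 19, 46396896 to 46488804, plus strand), which binds Gli proteins and keeps them from the nucleus, ranged from 41.4 to 50.1 CPM in wild-type and from 47.5 to 50.1 CPM in deleted cortex. Its groups also overlapped (log2 0.09, SE 0.06, 95% interval -0.04 to 0.22, adjusted p = 0.221 by edgeR). The intervals of these genes reach from a slight fall to a rise of 0.29 in Smo and 0.22 in Sufu, so a small rise was not resolved. Without wild-type replicate 3, again the lowest library for both, the log2 fold change was 0.0383 for Smo (adjusted p = 0.527) and 0.0438 for Sufu (adjusted p = 0.48).

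The Gli genes took different directions. Gli1 (Entrez gene 14632, chromosome 10, 127329882 to 127341579, minus strand), an activator whose own transcription is a common readout of pathway activity, was at 8.79, 9.77, 6.57 and 7.96 CPM in wild-type and at 5.30, 7.79, 5.65 and 5.68 CPM in deleted libraries. Deleted replicates 1, 3 and 4 lay below all wild-type libraries, and replicate 2 lay among them. Gli1 fell from 8.27 ± 1.35 to 6.10 ± 1.14 CPM (log2 -0.44, SE 0.15, 95% interval -0.77 to -0.10, adjusted p = 0.0276 by edgeR), on 151 to 420 counts per library. The call was lost, at unchanged direction, on leaving out wild-type replicate 1 or 2 or deleted replicate 1, 3 or 4, with log2 fold changes of -0.41, -0.36, -0.38, -0.42 and -0.42 and adjusted p from 0.0581 to 0.0735. Without deleted replicate 2 the log2 fold change was -0.59 (adjusted p = 0.00468).

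Gli2 (Entrez gene 14633, chromosome 1, 118834061 to 119054405, minus strand), the main activator in many tissues, ranged from 45.2 to 60.1 CPM in wild-type and from 49.2 to 51.8 CPM in deleted cortex. The deleted values lay within the wild-type range (log2 -0.08, SE 0.08, 95% interval -0.25 to 0.08, adjusted p = 0.354 by edgeR). Here too wild-type replicate 3 was the lowest, and without it Gli2 was lower in Taf8-deleted cortex (log2 -0.16, adjusted p = 0.0105).

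Gli3 (Entrez gene 14634, chromosome 13, 15463723 to 15730026, plus strand), the main source of Gli repressor, was at 129, 129.97, 112 and 115 CPM in wild-type and at 162, 152, 162 and 159.9 CPM in deleted libraries. All deleted libraries lay above all wild-type libraries by a clear gap. Gli3 rose from 122 ± 9.16 to 159 ± 4.74 CPM (log2 0.38, SE 0.05, 95% interval 0.26 to 0.51, adjusted p = 0.000155 by edgeR), the smallest adjusted p among the members, and it kept its call under all 22 alternatives of tool, scaling, filter, threshold and library. RNA counts per gene do not separate full-length Gli3 from its repressor, which is made by cutting the protein.

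**Figure D2:**
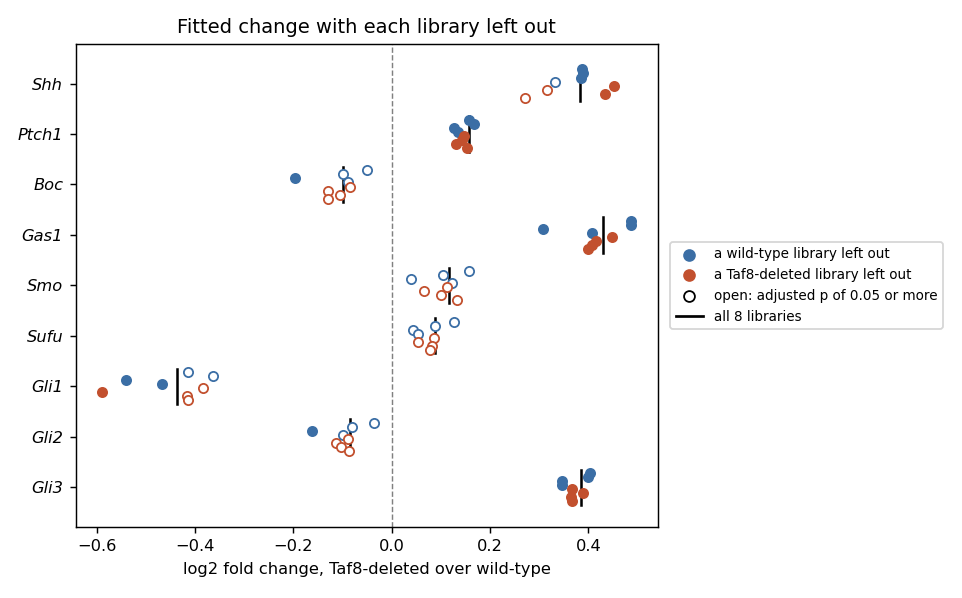
Log2 fold change of each member (x axis) when each of the 8 libraries is left out in turn. Filled points have an adjusted p under 0.05, open points do not, and the vertical bar is the value with all 8 libraries. Gli3, Ptch1 and Gas1 are filled at every point, Shh and Gli1 lose the call for some libraries, and Boc and Gli2 gain it without wild-type replicate 3.

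Wild-type replicate 3, the most deeply sequenced library, had the lowest wild-type value for 8 of the 9 members, all but Shh, whose lowest value was in wild-type replicate 4. The same library had the lowest radial glia marker sum of its group, 2498 CPM against 2705 to 2837 CPM in the others, and the highest neuron marker sum, 7603 CPM against 6276 to 6475 CPM. The part of these cell types in its low member values was not tested.

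Set per kilobase of the gene length used in counting, wild-type levels fell in the order Gas1 at 39.2, Smo at 28.4, Boc at 19.8, Sufu at 19.3, Gli3 at 14.4, Ptch1 at 11.5, Gli2 at 8.01, Gli1 at 2.26 and Shh at 2.04 CPM per kilobase. The ranges of Gas1 and Smo, of Boc and Sufu and of Gli1 and Shh over the wild-type libraries overlapped. Such ranges set values of different libraries side by side, and the order of neighbours within each library was not tested. In Taf8-deleted cortex the order was Gas1 at 52.7, Smo at 30.7, Sufu at 20.5, Gli3 at 18.8, Boc at 18.5, Ptch1 at 12.8, Gli2 at 7.54, Shh at 2.65 and Gli1 at 1.67 CPM per kilobase, and only Gli3 and Boc overlapped. Gli1 and the ligand, whose libraries overlapped in wild-type cortex, did not overlap in deleted cortex, where Gli1 was the lowest of the 9. Both were the scarcest members in either genotype, below Gli2, and Gas1 and Smo were the most abundant.

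Ratios within a library do not depend on how libraries are scaled. Of 6 ratios of members, taken per kilobase and chosen after their values were seen, 3 had groups that did not overlap. Gli1 to Gli3 was 0.157, 0.173, 0.135 and 0.159 in wild-type libraries and 0.0753, 0.118, 0.0805 and 0.0818 in deleted libraries. The log2 difference, taken between the group means of the log2 ratios, was -0.83. Gli2 to Gli3 was 0.584, 0.542, 0.506 and 0.583 in wild-type and 0.388, 0.429, 0.398 and 0.387 in deleted libraries (log2 difference -0.47). For both ratios the 4 deleted libraries lay below the 4 wild-type libraries. Gas1 to Boc was 1.99, 2.19, 1.84 and 1.84 in wild-type and 2.83, 2.76, 2.96 and 2.86 in deleted libraries (log2 difference 0.54). Exact two-sided permutation tests over 70 permutations gave p = 0.0286 for each, the smallest p that 4 against 4 allow. After adjustment over the 6 ratios the permutation p was 0.0572, so none of them passed. With 3 of 6 ratios at the smallest p, no adjusted p under 0.05 was possible, so this cannot decide whether they differ.

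The other ratios had groups that overlapped. Gli1 to Ptch1, both targets, went from 0.196 ± 0.0228 to 0.130 ± 0.0249 (exact permutation p = 0.0571, adjusted 0.0856), Gli1 to Gli2 from 0.282 ± 0.0252 to 0.221 ± 0.037 (exact permutation p = 0.114, adjusted 0.137). Ptch1 to Smo, receptor to the protein it restrains, was 0.408 ± 0.0373 and 0.418 ± 0.0215 (exact permutation p = 0.686).

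**Figure D3:**
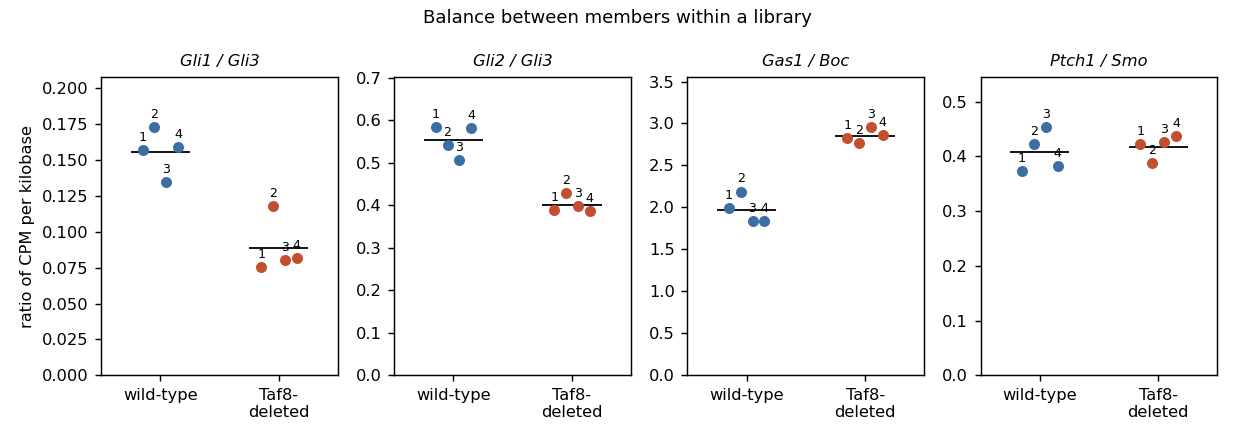
Ratios of members within each library, from CPM per kilobase (y axis, from 0), for 4 wild-type and 4 Taf8-deleted libraries. Points are libraries numbered by replicate and lines are means. Groups do not overlap for Gli1 to Gli3, Gli2 to Gli3 and Gas1 to Boc, and they overlap for Ptch1 to Smo.

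Beyond the 9 members, 52 further genes of the pathway were listed by role, and 47 passed the filter on low counts. Of these 47, 12 had risen, 16 had fallen and 19 missed the threshold, so 59.6% were called, beside 59.2% of all genes tested. Their median log2 fold change was -0.04 and the median size of change 0.25, beside 0.27 for all genes. In 24 of 47 the groups did not overlap, against 53.6% of all genes tested. The share called was 50% for ligand release, 42.9% at the cell surface, 66.7% between Smo and Gli and 61.5% among further targets. All genes tested gave 59.2%, and each role holds few genes.

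**Figure D4:**
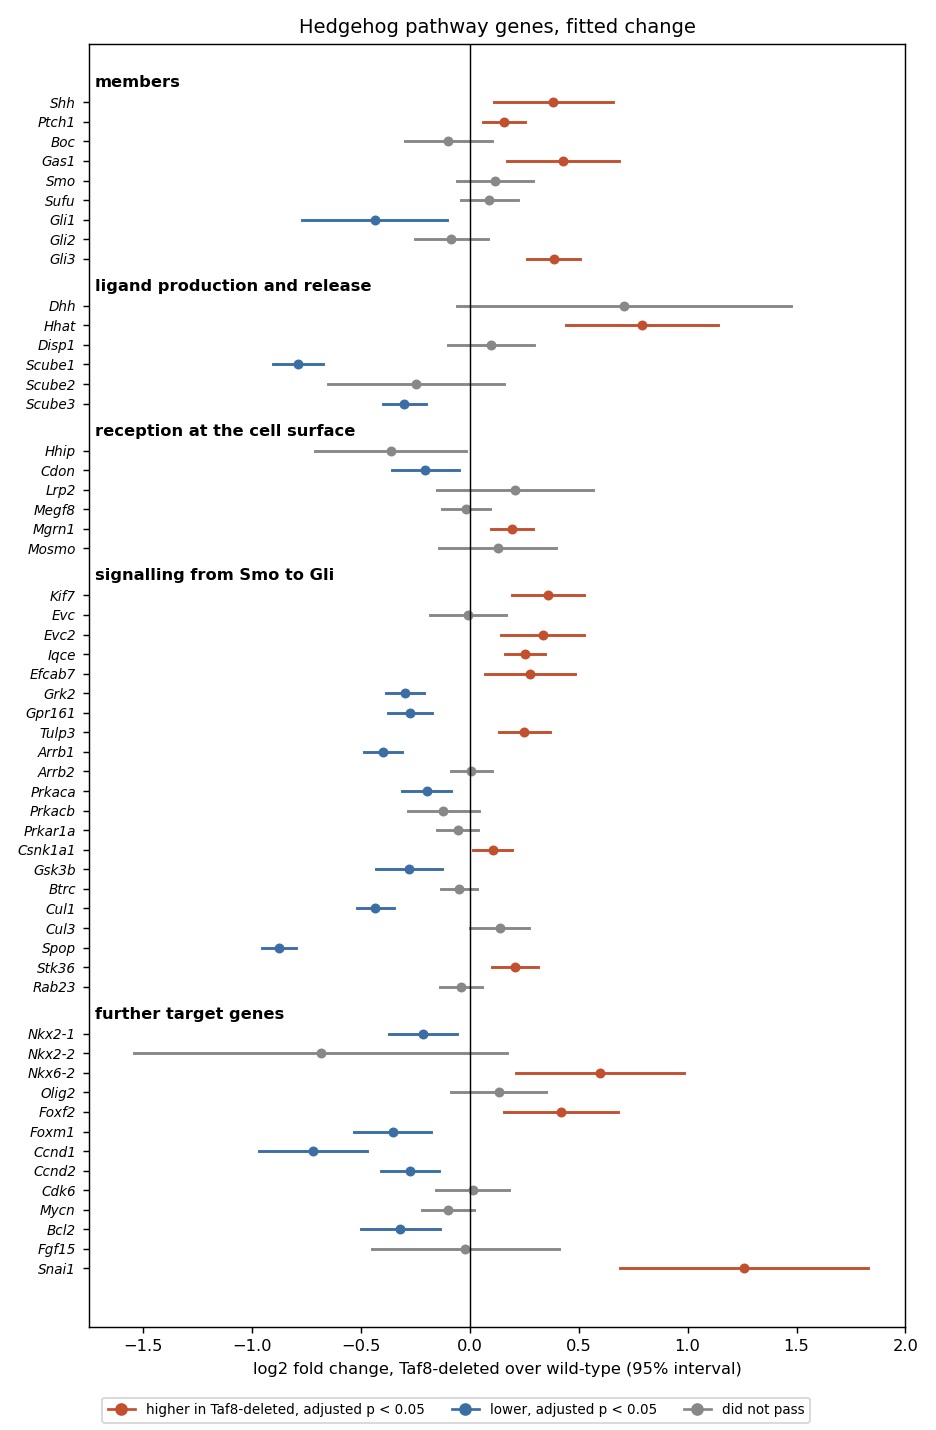
Log2 fold change with its 95% interval (x axis) of the 9 members and of 46 of the 47 tested genes of the other lists, by role. Colours mark genes higher, lower or not passing at an adjusted p of 0.05. Spop has the largest fall among the called genes, -0.88, and Snai1 the largest rise, 1.26.

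For the making and release of the ligand, 6 of 7 listed genes were tested, 1 was higher and 2 were lower. Hhat, the acyltransferase that adds palmitate to Shh, rose from 2.50 ± 0.179 to 4.34 ± 0.929 CPM (log2 0.79, SE 0.16, adjusted p = 0.00145 by edgeR). Scube1, a member of a family of secreted proteins of which Scube2 is known for freeing hedgehog from cells, fell from 81.5 ± 2.78 to 47.1 ± 3.18 CPM (log2 -0.79, SE 0.05, adjusted p = 7.62e-07 by edgeR). Its relative Scube3 fell from 29.0 ± 0.399 to 23.6 ± 0.821 CPM (log2 -0.30, adjusted p = 0.000197 by edgeR). Disp1, the transporter that releases the lipid-bearing ligand, was at 18.6 ± 1.97 and 19.8 ± 1.84 CPM and did not pass (log2 0.10, adjusted p = 0.375). Dhh, the ligand best known from testis and peripheral nerve, was at 0.297 and 0.469 CPM and did not pass (log2 0.71, adjusted p = 0.101 by edgeR), on 7 to 25 counts per library. Without wild-type replicate 4 it passed (log2 1.12, adjusted p = 0.0075 by edgeR), as it did by limma voom with all libraries (log2 0.83, adjusted p = 0.0469). Ihh was not tested.

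At the cell surface, 7 genes were tested, with 1 higher, 2 lower and 4 that missed the threshold. Hhip, a decoy that binds the ligand and is also a target, was at 2.87 ± 0.429 and 2.21 ± 0.356 CPM and did not pass (log2 -0.36, SE 0.16, adjusted p = 0.0681 by edgeR). It passed as lower without wild-type replicate 4 (log2 -0.47, adjusted p = 0.0275), without deleted replicate 4 (log2 -0.47, adjusted p = 0.0339), and without wild-type replicate 4 and deleted replicate 1 together (log2 -0.49, adjusted p = 0.0377). Cdon, the coreceptor most like Boc, fell from 249 ± 25.6 to 216 ± 8.56 CPM (log2 -0.20, SE 0.07, adjusted p = 0.0268 by edgeR), with groups that overlapped, and lost the call without wild-type replicate 1 or 2, without deleted replicate 2, and without wild-type replicate 4 and deleted replicate 1 together (adjusted p from 0.0506 to 0.0872), and with library size alone as the scaling (adjusted p = 0.0664). Mgrn1, a ubiquitin ligase that acts on Smo, rose from 134 ± 4.86 to 154 ± 5.92 CPM (log2 0.20, adjusted p = 0.00278 by edgeR).

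Between Smo and Gli, 21 genes were tested, with 7 higher, 7 lower and 7 that missed the threshold. Spop, the adaptor through which Cul3 marks Gli2 and Gli3 for degradation, had the largest change of the list, from 171 ± 2.98 to 93.0 ± 2.46 CPM (log2 -0.88, SE 0.04, adjusted p = 4.92e-08 by edgeR). Cul3 itself was at 191 ± 16.2 and 210 ± 9.05 CPM and did not pass (log2 0.14, adjusted p = 0.0743). Cul1, the scaffold of the ligase that marks Gli proteins for processing, fell from 290 ± 8.81 to 215 ± 5.49 CPM (log2 -0.43, adjusted p = 5.64e-06 by edgeR). Btrc, which recruits Gli3 to that ligase, did not pass (log2 -0.05, adjusted p = 0.281).

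Other genes that act between Smo and Gli were split. Arrb1, a beta-arrestin, had a log2 fold change of -0.40 and Grk2, a kinase that phosphorylates Smo, of -0.30 (adjusted p = 1.12e-05 and 9.64e-05 by edgeR). The other beta-arrestin, Arrb2, did not pass (log2 0.007, adjusted p = 0.898 by edgeR). Gpr161, a ciliary receptor that raises cAMP and favours Gli3 repressor, fell by 0.27 and Gsk3b by 0.28 on the log2 scale. Prkaca, a catalytic subunit of protein kinase A, fell by 0.20. Of the same kinase, Prkacb (log2 -0.12, adjusted p = 0.183) and Prkar1a (log2 -0.06, adjusted p = 0.282) did not pass by edgeR. Kif7, the ciliary kinesin that organises Gli and Sufu, rose from 24.3 ± 2.17 to 31.2 ± 2.22 CPM (log2 0.36, SE 0.07, adjusted p = 0.00181 by edgeR). Evc2 at 0.34, Iqce at 0.25 and Efcab7 at 0.28, all of the complex that relays Smo activity at the base of the cilium, were higher on the log2 scale, while Evc did not pass (log2 -0.01, adjusted p = 0.938). Tulp3 at 0.25, Stk36 at 0.21 and Csnk1a1 at 0.11 were higher as well.

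Of 17 further genes known as targets in some tissues, 13 were tested, with 3 higher, 5 lower and 5 that missed the threshold. Ccnd1, a cyclin of the G1 phase, fell from 144 ± 20.7 to 87.5 ± 10.5 CPM (log2 -0.72, SE 0.11, adjusted p = 0.000275 by edgeR). Ccnd2 fell from 890 ± 71.0 to 736 ± 37.3 CPM (log2 -0.27, adjusted p = 0.00249) and Foxm1, a regulator of mitotic genes, from 127 ± 16.4 to 98.8 ± 1.71 CPM (log2 -0.35, adjusted p = 0.00315). Bcl2 fell by 0.32 and Nkx2-1, the ventral telencephalic regulator, by 0.21 on the log2 scale. Snai1, a zinc finger repressor, rose from 0.437 ± 0.0997 to 1.03 ± 0.284 CPM (log2 1.26, SE 0.26, adjusted p = 0.00172 by edgeR) on 16 to 44 counts per library, and Nkx6-2 at 0.60 and Foxf2 at 0.42 were higher on the log2 scale. Mycn, Cdk6, Olig2, Fgf15 and Nkx2-2 did not pass, and Nkx2-9, Nkx6-1, Foxa2 and Foxf1 were not tested. Foxm1, Ccnd1 and Ccnd2 are genes of dividing cells in general, and most of the list is transcribed without this pathway in other tissues.

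Markers of several cell types also differed between the groups. Among all genes tested, 29.5% were higher and 29.6% lower. Cortical identity markers were lower for 8 of 10, and neuron markers for 9 of 10, with neuron sums of 6276 to 7603 CPM in wild-type and 4710 to 5299 CPM in deleted cortex. Radial glia are progenitors in which Gli2, Gli3 and Gas1 are known to be transcribed. Their markers were higher for 7 of 10 and lower for 2. The sums were 2498 to 2837 CPM in wild-type and 3450 to 3796 CPM in deleted cortex. Nes, from 515 to 979 CPM, and Vim, from 809 to 1226 CPM, had the largest rises in CPM. Fabp7 fell from 480 to 336 CPM and Slc1a3 from 145 to 116 CPM, and Sox2 did not pass. Of the members, Gli3 and Gas1 rose, while Gli1 fell and Gli2 and Boc did not pass. Endothelial and pericyte markers were higher for 12 of 12, with sums of 204.5 to 217.4 CPM and 245.9 to 312.8 CPM. Their part in the members' changes was not tested.

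Meningeal fibroblast markers, in tissue where Gas1, Ptch1 and Gli1 can also be transcribed, were higher for 8 of 13 tested. Their sums were 173.9 to 247.3 CPM in wild-type and 241.5 to 356 CPM in deleted cortex. Zic1 alone made up most of each sum, at 161 ± 27.4 CPM in wild-type and 195 ± 11.1 CPM in deleted cortex. The mean log2 CPM of the tested markers was 2.48, 3.04 and 3.16 in deleted replicates 1 to 3. In deleted replicate 4 it was 1.02, within the wild-type range of 0.875 to 1.94. Deleted replicate 4 had the highest Shh, 8.38 CPM, and the highest Gas1, 170.8 CPM, and its Gli3, 159.9 CPM, was above every wild-type library. Against the wild-type mean its log2 differences were 0.62 for Shh, 0.48 for Gas1, 0.39 for Gli3, -0.54 for Gli1 and 0.12 for Ptch1. In replicates 1 to 3 together they were 0.29, 0.41, 0.38, -0.41 and 0.17. Replicate 4 is a single library, and the part of meningeal tissue in the members' changes was not tested. Choroid plexus and dorsal midline marker sums differed widely between libraries, from 49.94 to 451.3 CPM in wild-type and from 36.73 to 1258 CPM in deleted libraries. Ttr alone made up most of the largest sums, at 366 CPM in wild-type replicate 4 and 1117 CPM in deleted replicate 1. The mean log2 CPM of the list was also highest there, at 2.57 and 3.41. Not every marker followed, as Wnt8b and Wnt3a were highest in replicate 2 of each group. In a fit added after seeing the data, wild-type replicate 4 and deleted replicate 1, with the largest sums of their groups, were left out. Gli3 and Gas1 kept their calls in it. Shh had a log2 fold change of 0.43 (adjusted p = 0.0243), Ptch1 of 0.15 (adjusted p = 0.0616) and Gli1 of -0.39 (adjusted p = 0.103) by edgeR. This fit also has fewer libraries, and the part of choroid plexus tissue in the members' changes was not tested.

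Across the 8 libraries, the genes whose log2 profile was closest to that of a member were found among 11024 genes of at least 5 CPM, by the root mean square difference after centring on the wild-type mean. For Gli1 these were Grm4 at 0.0847, Bcl7c at 0.110 and Pak4 at 0.112. For Gli3 they were Ggcx at 0.038, Plxnb1 at 0.0407 and Polr2h at 0.0432. For Shh they were Dgat1 at 0.118, Grm2 at 0.120 and Nbeal2 at 0.120. None of these genes is in the pathway lists, and the likeness describes these libraries only.

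In the GENCODE annotation other genes overlap 8 of the 9 members, and no source used here gives the strand setting of the counting, so reads of opposite-strand partners cannot be told apart from theirs. Where such a partner had a count of its own, it was small. Next to Gli1, Arhgap9 on the opposite strand was at 0.311 ± 0.064 and 0.456 ± 0.153 CPM, and next to Shh, 9530036O11Rik was at 0.0396 and 0.0829 CPM. Sufu overlaps no annotated gene.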

How the data were processed

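Poly(A) RNA of 8 embryonic mouse cortices was sequenced in pairs from stranded libraries, per the labels' protocols and the series' design text. The deposited values are raw counts per Entrez gene, with no normalization. Subread 1.5.0, featureCounts and the build mm10 are named in the submitters' processing notes. No source used here gives the annotation, the strand setting or how multiply mapped reads were treated. The matrix and the single-sample files differed in 0 values, and no libraries of a group were alike within sampling noise (chi-square per degree of freedom 3.66 to 28.4).

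Groups came from the labels. Counts were fitted in edgeR 4.0.16 (R 4.3.3; TMM, filterByExpr, quasi-likelihood F-test) over all 15649 genes tested, with Benjamini-Hochberg adjustment and a threshold of 0.05. SE was taken as log2 fold change over root F. CPM uses TMM-scaled library sizes. Steps were tested on simulated data. Symbols came from RefSeq for 25275 of 27179 genes.

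The members, lists and tests were chosen with earlier results of these data known. Named are the members, Taf8, up to 4 genes of each further list by adjusted p, Hhip, Cdon and Kif7, and 3 genes with the profile closest to Gli1, Gli3 and Shh. Other genes of the lists, the overlapping genes and the ratios were added after their values were seen. Alternatives were other scalings, filters, DESeq2 1.42.0, limma 3.58.1 voom (plain or with quality weights), a replicate block, the single-sample files, a threshold of 0.01, a 1.2-fold test and left-out libraries. Leaving out wild-type replicate 4 together with deleted replicate 1 was an alternative added after seeing the data. Not every gene that the rule takes is reported here. P-values of the fits set the difference between groups against the spread between embryos within a group. Wild-type replicates 1, 2 and 3 share the first part of their animal number, and the deleted embryos share none. If that part marks a litter, the wild-type spread is partly one between littermates.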

Additional observations from a re-analysis of the deposited data

Results flagged for a closer look

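Among 27 genes in both groups, 54 groups of 4 libraries were looked at for a library far from the others, and 4 were found, where chance gives about 1 in 20. Gli1 in deleted replicate 2 was 7.79 CPM, against 5.68 CPM in the nearest and 5.30 CPM in the farthest deleted library. Sufu in the same library was 50.08 CPM, against 47.82 CPM in the nearest. Scube1 in deleted replicate 4 was 51.84 CPM, against 45.92 CPM in the nearest deleted library. Ccnd2 in wild-type replicate 3 was 784.1 CPM, below the nearest wild-type library at 911.7 CPM.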

How the results depend on the processing

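None of the 9 members changed direction in 22 alternatives, and Gli3, Smo and Sufu also kept their side of the threshold in all of them. DESeq2, the other scalings, the filters and the single-sample files changed no member's call. With quality weights in limma voom 2 members were lower, Boc joining at -0.16. With deleted replicate 4 as the only deleted library, whose spread is assumed from the wild-type group, 2171 genes were higher and 2459 lower, 2 members were higher and 0 lower (1 at an unadjusted p under 0.05), and 1 and 10 other pathway genes. Ptch1 was then 0.12, Gas1 0.48 and Gli1 -0.54, none past the threshold. Against a 1.2-fold change 2307 genes were higher and 2328 lower, 1 member (Gli3) was higher and 0 were lower (0 at an unadjusted p under 0.05 by edgeR), with 2 and 5 other pathway genes, and Shh at 0.38, Ptch1 at 0.16, Gas1 at 0.43 and Gli1 at -0.44 did not pass. At a threshold of 0.01, 2 members were higher and 0 lower (1 at an unadjusted p under 0.05), with Shh at 0.38, Ptch1 at 0.16 and Gli1 at -0.44 not passing.

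Over 9 fits with libraries left out, 0 to 3 members were lower, Shh ran from 0.27 to 0.45, Ptch1 from 0.13 to 0.17, Boc from -0.197 to -0.0495, Smo from 0.0383 to 0.158, Sufu from 0.0438 to 0.128, Gli1 from -0.59 to -0.36 and Gli2 from -0.163 to -0.037. Where this lost or added a call, the cause was not tested. Ptch1 lost its call in 1 of these fits, Shh in 3 and Gli1 in 6. The label numbers did not pair the embryos: same-numbered libraries had correlations of -0.464 to 0.0138 in their deviations from the group means, and 0 of 4 wild-type libraries were closest to their own number. With a replicate block 4115 genes were higher and 4170 lower, 4 members were higher and 1 lower, and Gli3 was 0.39 (adjusted p = 0.00165), Gas1 0.45 (0.014), Shh 0.37 (0.0485) and Gli1 -0.44 (0.0123). Of the members, Shh and Gli1 had the fewest counts, 163 to 444 and 151 to 420 counts per library.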
